A study of Mus musculus with 6 samples.

Results

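Erythroid transcripts were followed in whole embryonic hearts as a possible measure of the blood that the hearts held. Whether these transcripts track blood content was not tested. The set is a list of 30 genes of red cells and their precursors, chosen by name, and a probe set was used where the platform annotation tied it to exactly 1 of these symbols. Such a probe set existed for 26 of the 30 genes, out of 18193 genes on the array, and 14 of the 26 were bright enough to be tested. The gene was read by the probe set with the highest mean over all arrays. The arrays held 3 heart samples of FOG-2R3K5A embryos and 3 of wild-type (WT) siblings at embryonic day 16.5, all with C57/B6 and 129 S6 strains mixed in their background and all bred from double heterozygous crosses. Zfpm2 encodes FOG-2, a partner protein of GATA factors in heart muscle, and the R3K5A substitutions are known to stop FOG-2 from binding NuRD, a chromatin complex. The labels do not give the zygosity of the FOG-2R3K5A embryos or say whether a replicate was 1 heart or a pool, and each sample is called a heart here. Labelled target made from 3 µg of RNA of each sample was read on 1 Affymetrix array, and values are intensities on a log2 scale (log2 units). The adjusted p-values are limma's, over all 11113 genes tested. They compare each genotype difference with the spread within genotypes among these 6 samples, which limma moderates with values of all tested genes.

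The first red cells of an embryo, called primitive, arise in the yolk sac and carry embryonic globins. They are later replaced in the blood by definitive red cells from the fetal liver, which carry adult globins and lose their nuclei before they enter the blood. A globin tetramer pairs alpha-type with beta-type chains, and each chain holds a heme, whose synthesis begins and ends in the mitochondrion. In the mouse the alpha-type genes lie together on chromosome 11, with the embryonic Hba-x and the adult Hba-a1 and Hba-a2. The beta-type genes lie on chromosome 7, with the embryonic Hbb-y and Hbb-bh1 and the adult Hbb-bs and Hbb-bt. Hbb-b1 and Hbb-b2 are the adult beta genes of the other common haplotype. Which haplotype each of these hearts carried, and its part in the Hbb-b2 values below, was not tested.

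The promoters of 5 globin genes are shown because the embryonic Hbb-y and Hba-x varied most between replicates among the tested erythroid genes, and the adult globins are their counterparts in definitive red cells. Each line gives the 250 bases before the transcript start, 5′ to 3′ on the gene's own strand, from RefSeq in build GRCm38.p6. Capitals mark GATAA (a motif of GATA factors), CACCC (a motif of Klf-type factors) and CCAAT. Both strands were searched: a capital TTATC is the first motif on the other strand, GGGTG would be the second and ATTGG is the third.
Hbb-y (chr7:103853208-103853457, minus strand): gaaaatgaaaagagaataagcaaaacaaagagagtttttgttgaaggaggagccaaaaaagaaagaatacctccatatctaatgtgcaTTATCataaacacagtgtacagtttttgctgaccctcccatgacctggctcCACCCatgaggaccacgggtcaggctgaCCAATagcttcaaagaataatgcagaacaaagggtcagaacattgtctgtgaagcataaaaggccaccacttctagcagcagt
Hba-x (chr11:32276350-32276599, plus strand): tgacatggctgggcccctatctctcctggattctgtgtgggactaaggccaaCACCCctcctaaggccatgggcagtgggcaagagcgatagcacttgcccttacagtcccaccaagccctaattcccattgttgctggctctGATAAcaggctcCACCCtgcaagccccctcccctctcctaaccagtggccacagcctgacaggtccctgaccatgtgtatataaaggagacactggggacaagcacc
Hbb-bs (chr7:103827929-103828178, minus strand): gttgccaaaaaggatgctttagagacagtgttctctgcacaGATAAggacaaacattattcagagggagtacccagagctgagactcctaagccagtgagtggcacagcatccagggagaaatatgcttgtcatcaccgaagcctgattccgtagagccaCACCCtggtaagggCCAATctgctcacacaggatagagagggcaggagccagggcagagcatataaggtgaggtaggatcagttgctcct
Hbb-bt (chr7:103813924-103814173, minus strand): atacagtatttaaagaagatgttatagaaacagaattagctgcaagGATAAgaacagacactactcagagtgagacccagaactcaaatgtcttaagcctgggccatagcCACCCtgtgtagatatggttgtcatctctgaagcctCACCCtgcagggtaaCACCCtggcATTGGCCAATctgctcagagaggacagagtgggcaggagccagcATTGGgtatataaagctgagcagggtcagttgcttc
Hba-a1 (chr11:32283422-32283671, plus strand): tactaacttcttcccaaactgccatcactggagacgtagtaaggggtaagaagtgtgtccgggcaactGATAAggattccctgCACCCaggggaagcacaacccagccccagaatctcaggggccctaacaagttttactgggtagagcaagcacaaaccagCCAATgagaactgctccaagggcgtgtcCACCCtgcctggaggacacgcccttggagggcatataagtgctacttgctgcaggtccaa
All 5 hold 1 GATAA and between 1 and 3 CACCC motifs. CCAAT is in 4 of them and its letters are not in the Hba-x window. In Hbb-bt a CCAAT and a reverse-strand ATTGG stand next to each other without overlap. The adult alpha genes cannot be told apart here, since 247 of 247 bases aligned between the Hba-a1 and Hba-a2 windows were identical. A promoter sequence was given for 22 of the 30 genes, and GATAA was found in 18 of the 22 (81.8%), against 25.5% of 27025 genes. CACCC was found in 19 of the 22 (86.4%), against 54.5%, and CCAAT in 12 (54.5%), against 37.5%. A gene with several listed starts counted if any of them had the motif. A match is a description of letters and not a bound site.

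The hearts were alike in overall signal, with array medians of 77.4 to 84.1 intensity units. Correlations over the tested genes were 0.990 to 0.995 among FOG-2R3K5A arrays, 0.982 to 0.986 among WT arrays and 0.972 to 0.990 between genotypes. The cardiomyocyte list read up to 13.60 log2 units in the mean over arrays and had 12 of 12 genes above the filter level. In all, 196 of 11113 genes (1.76%) were called between genotypes at an adjusted p under 0.05, 155 higher (1.39%) and 41 lower (0.369%) in FOG-2R3K5A hearts. In bulk tissue, fewer cells of a type and less RNA per cell cannot be told apart, and this holds for every blood transcript below.

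Adult globin message was among the brightest signals of these hearts. The annotation ties 4 probe sets to several adult globin symbols at once, and they stayed out of the gene test. The brightest alpha probe set, shared by Hba-a1 and Hba-a2, read 13.16, 13.20 and 13.15 in FOG-2R3K5A replicates 1, 2 and 3, against 13.21, 13.11 and 13.02 in WT replicates 1, 2 and 3. The beta probe set, shared by Hbb-bt, Hbb-bs, Hbb-b2 and Hbb-b1, read 13.13, 13.17 and 13.10 in FOG-2R3K5A hearts, against 13.18, 13.11 and 13.03 in WT hearts. The genotypes overlapped on both, and only 71 of the array's non-control probe sets had a higher mean than the brightest of these. In a fit over all 22518 probe sets above the filter level, chosen after the data were seen, the differences were 0.06 (SE 0.05, adjusted p = 0.655) for that alpha probe set and 0.02 (SE 0.05, adjusted p = 0.841) for the beta probe set. A second alpha probe set differed by 0.005 (SE 0.06). The third and dimmest one read 13.21, 13.12 and 13.06 in FOG-2R3K5A hearts, against 12.91, 12.85 and 12.50 in WT hearts, without overlap. Its difference of 0.38 (SE 0.10) did not pass in that fit either (adjusted p = 0.126), in which 0.99% of probe sets were called. The 3 alpha probe sets therefore gave unequal differences for the same pair of genes. The brightest mean on any probe set was 13.60 log2 units, and whether differences were compressed at this brightness was not tested.

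The single-symbol probe sets of the adult globins were dim or disagreed. Hba-a1 read 0.00 to 1.37 log2 units and Hba-a2 5.07 to 5.71 over the 6 arrays, both under the filter level of 6.30. Hbb-b2 read 8.63, 8.22 and 9.39 in FOG-2R3K5A hearts, against 8.58, 8.10 and 8.84 in WT hearts, a difference of 0.24 (SE 0.28, adjusted p = 0.721). The other Hbb-b2 probe set read 6.93, 7.03 and 6.52 in FOG-2R3K5A hearts, against 7.55, 9.79 and 7.42 in WT hearts, so that WT replicate 2 stood 2 log2 units or more above all other arrays on it. The genotypes did not overlap on this probe set. It lay in the opposite direction, at -1.43 (SE 0.53, adjusted p = 0.281 over all probe sets). Hbb-b1, Hbb-bs and Hbb-bt were read by the shared probe set only, and no probe set annotated to Ahsp, the chaperone of free alpha globin, was used here.

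**Figure D1:**
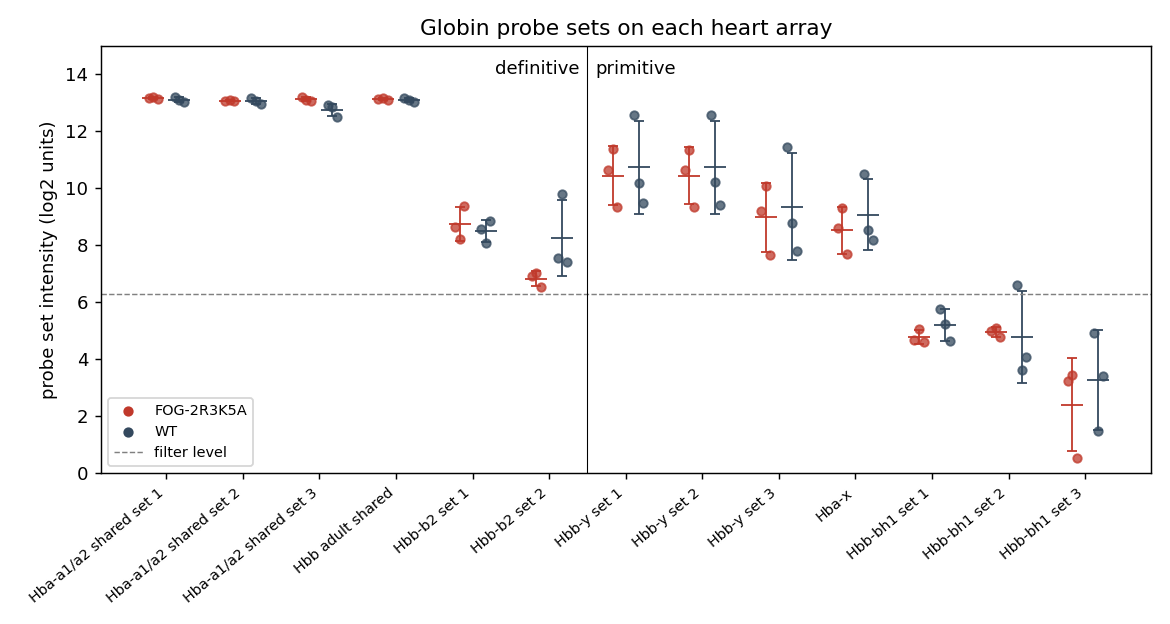
Intensity in log2 units of each globin probe set, with FOG-2R3K5A arrays (red) left of WT arrays (dark), a bar for each mean and whiskers for the SD of 3 arrays; sets of a gene are numbered from bright to dim. The shared adult globin probe sets lie between 12.50 and 13.21 on every array, while Hbb-y and Hba-x spread over several log2 units within each genotype.

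Primitive globins were not called between genotypes by limma, and varied widely among hearts of the same genotype. Hbb-y, the embryonic epsilon-type beta chain, read 10.63, 11.37 and 9.33 in FOG-2R3K5A replicates 1, 2 and 3, against 12.59, 10.19 and 9.47 in WT replicates 1, 2 and 3. WT replicate 1 was the highest and FOG-2R3K5A replicate 3 the lowest, 9.57-fold apart, and the genotypes overlapped. The means were 10.44 ± 1.03 in FOG-2R3K5A and 10.75 ± 1.63 in WT hearts (SD, n = 3 each). The difference was -0.30 (SE 0.74, adjusted p = 0.881, 95% interval -1.98 to 1.37). Changes of more than 2-fold either way lie within that interval, so these arrays do not show that the genotypes had equal Hbb-y. The other Hbb-y probe sets gave -0.29 and -0.37, and their highest and lowest arrays were the same and 9.28-fold and 13.8-fold apart.

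Hba-x, the embryonic zeta-type alpha chain encoded on another chromosome, repeated this order of hearts. It read 8.59, 9.33 and 7.68 in FOG-2R3K5A hearts, against 10.50, 8.54 and 8.18 in WT hearts. WT replicate 1 was again highest, followed by FOG-2R3K5A replicates 2 and 1, WT replicates 2 and 3 and FOG-2R3K5A replicate 3, the same order as for Hbb-y in all 6 places. Of all tested genes 35 (0.315%) had this order, Hbb-y and Hba-x among them, and no other tested erythroid gene did. The shared adult globin probe sets were not in that count. The shared beta probe set had the same order except that WT replicate 3 lay below FOG-2R3K5A replicate 3, over a range of 0.145 log2 units. WT replicate 1 and then FOG-2R3K5A replicate 2 were also highest on the shared alpha probe sets, except on the dimmest one. The difference of Hba-x was -0.54 (SE 0.58, adjusted p = 0.693, 95% interval -1.84 to 0.76). Hbb-bh1, the other embryonic beta-type gene, lay under the filter level. Its brightest probe set read 4.68, 5.05 and 4.61 in FOG-2R3K5A hearts, against 5.77, 5.23 and 4.63 in WT hearts, and WT replicate 1 was the highest array on all 3 Hbb-bh1 probe sets.

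The sign of the primitive globin differences depended on single hearts. Without WT replicate 1 the difference of Hbb-y was 0.61 (adjusted p = 0.519) and that of Hba-x 0.17 (adjusted p = 0.839). Without FOG-2R3K5A replicate 3 the difference of Hbb-y was 0.25 (adjusted p = 0.917), while that of Hba-x stayed negative, at -0.11 (adjusted p = 0.957). The summed intensity of Hbb-y, Hba-x and Hbb-bh1 ran from 872 to 3317 in FOG-2R3K5A hearts and from 1023 to 7653 in WT hearts.

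**Figure D2:**
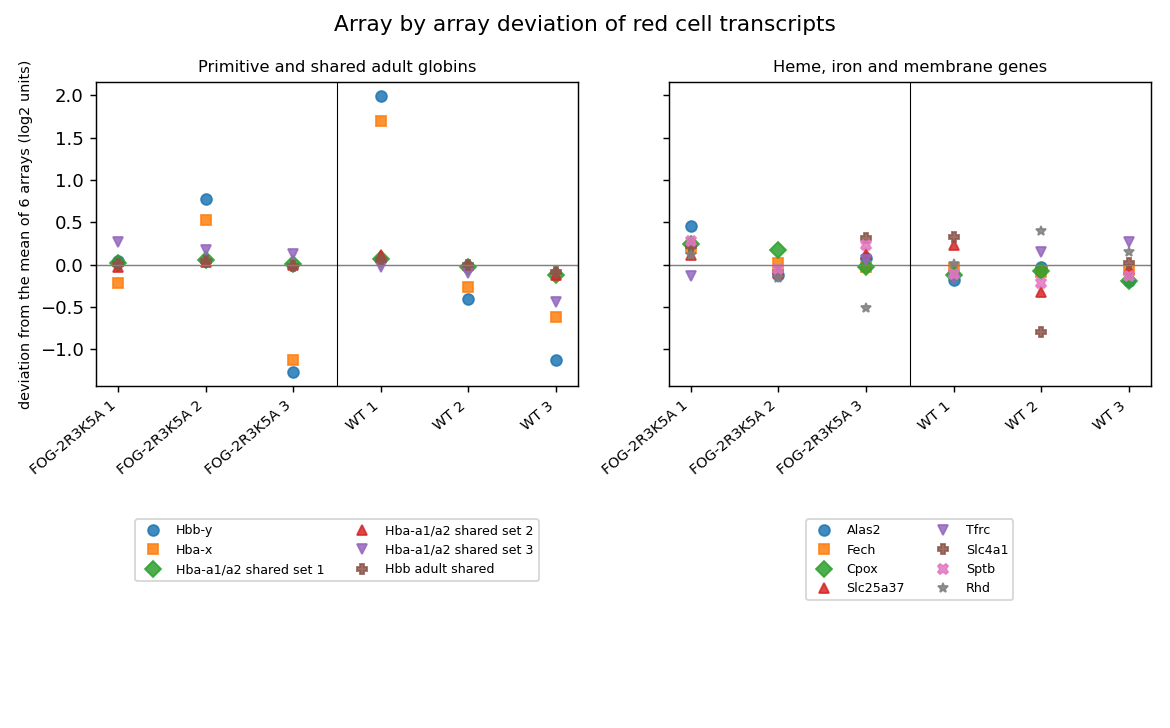
Deviation of each array from the mean of all 6 arrays, in log2 units, with FOG-2R3K5A arrays left of WT arrays. Left panel, Hbb-y and Hba-x put the arrays in the same order, with WT replicate 1 at 1.99 and 1.70, while the shared adult globin probe sets stay within 0.44; right panel, 8 heme, iron and membrane genes do not follow the order of the primitive globins.

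Among all tested genes few varied as much between replicate hearts. The SD within genotypes was 1.37 log2 units for Hbb-y and 1.06 for Hba-x, ranks 3 and 6 among 11113 genes, against a median of 0.12 over all of them. Within FOG-2R3K5A hearts alone, which do not include WT replicate 1, Hbb-y ranked 5 and Hba-x 9, and within WT hearts alone they ranked 1 and 3. Hbb-b2 (0.50), Epor (0.48) and Slc4a1 (0.44) ranked 86, 104 and 150. The median SD of the 14 tested erythroid genes was 0.22.

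**Figure D3:**
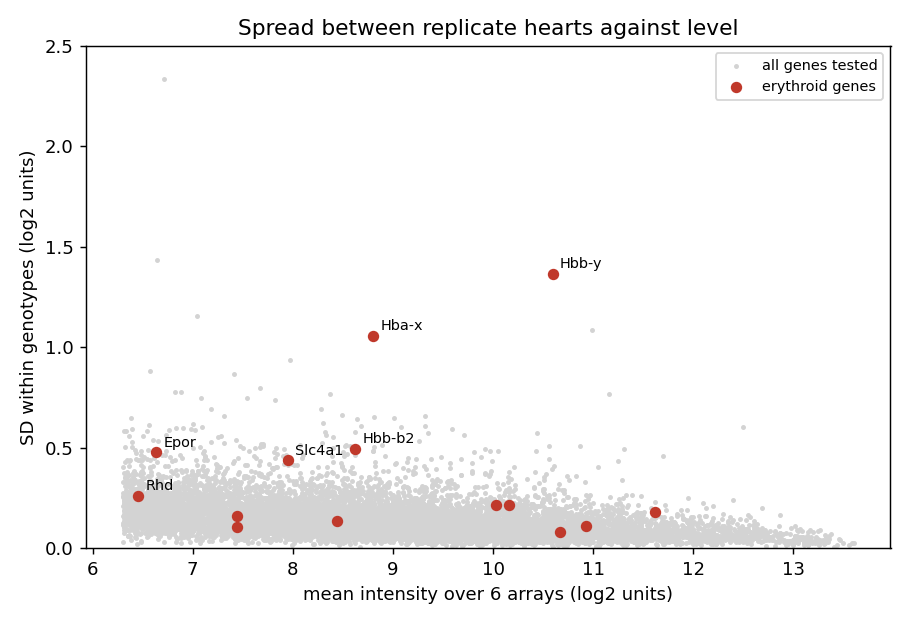
SD within genotypes against mean intensity, both in log2 units, for all 11113 tested genes (grey) and the 14 erythroid genes (red). Hbb-y at 1.37 and Hba-x at 1.06 stand above most genes of similar brightness.

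Genes of heme synthesis and iron handling were bright in both genotypes and none was called. Alas2, the erythroid enzyme of the rate-limiting step of heme synthesis, read 10.48, 9.91 and 10.10 in FOG-2R3K5A hearts, against 9.85, 10.00 and 9.84 in WT hearts. FOG-2R3K5A replicate 1 was highest and the genotypes overlapped, with a difference of 0.27 (SE 0.13, adjusted p = 0.386). Cpox, coproporphyrinogen oxidase, read 11.17, 11.11 and 10.90 in FOG-2R3K5A hearts, against 10.81, 10.86 and 10.74 in WT hearts, higher in every FOG-2R3K5A heart than in any WT heart. Its difference of 0.26 (SE 0.08) had the smallest adjusted p of the 14 genes (0.170). It was called only with array quality weights (0.33, adjusted p = 0.0347), and its other probe sets above the filter level gave 0.27 and -0.04. On the probe set with -0.04, WT replicate 2 read 9.09, against 7.15 and 7.20 in WT replicates 1 and 3 and 7.68 to 7.85 in FOG-2R3K5A hearts. Fech, ferrochelatase, which inserts iron into the ring, read 10.86, 10.69 and 10.65 in FOG-2R3K5A hearts, against 10.63, 10.58 and 10.61 in WT hearts, also without overlap, at 0.13 (SE 0.07, adjusted p = 0.457). Its other bright probe sets, at -0.01 and -0.13, did not share that direction. Slc25a37, mitoferrin, the iron importer of mitochondria, read 10.27, 10.06 and 10.29 in FOG-2R3K5A hearts, against 10.40, 9.84 and 10.11 in WT hearts (0.09, SE 0.13). Tfrc, the transferrin receptor, which many dividing cells also carry, read 11.48, 11.47 and 11.68 in FOG-2R3K5A hearts, against 11.45, 11.77 and 11.89 in WT hearts, at -0.16 (SE 0.11, adjusted p = 0.534). Cpox, Fech and Tfrc are not confined to red cells, so their level is not a measure of blood alone.

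Membrane genes of the red cell were dimmer. Slc4a1, the anion exchanger band 3, read 8.17, 7.87 and 8.26 in FOG-2R3K5A hearts, against 8.28, 7.15 and 7.97 in WT hearts. WT replicate 2 was lowest, and the difference was 0.30 (SE 0.25, adjusted p = 0.607), or -0.02 without that heart. The other Slc4a1 probe set above the filter level gave 0.23, also with WT replicate 2 lowest (7.51), and was not fitted without that heart. Sptb, beta spectrin of the membrane skeleton, which muscle also expresses, read 8.72, 8.38 and 8.67 in FOG-2R3K5A hearts, against 8.33, 8.23 and 8.31 in WT hearts, without overlap. Its difference was 0.31 (SE 0.11, unadjusted p = 0.0217 by limma, adjusted p = 0.241), and its second probe set gave 0.22. Rhd, an Rh blood group protein, read 6.57, 6.30 and 5.95 in FOG-2R3K5A hearts, against 6.46, 6.85 and 6.61 in WT hearts, at -0.37 (SE 0.19, adjusted p = 0.401), with its mean close to the filter level. Epb42 (protein 4.2), Rhag (the Rh-associated glycoprotein), Kel (the Kell blood group protein) and Ermap, which encodes an erythroblast membrane protein, were under that level. Their arrays read from 3.61 to 6.17.

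Transcription factors of the red cell lineage were mostly too dim to test. Tal1, a basic helix-loop-helix factor that endothelial cells also express, read 7.58, 7.60 and 7.31 in FOG-2R3K5A hearts, against 7.52, 7.42 and 7.21 in WT hearts (0.12, SE 0.13, adjusted p = 0.711). Gata1, the GATA factor of red cells, read 5.87, 5.79 and 5.94 in FOG-2R3K5A hearts, against 6.00, 6.19 and 6.19 in WT hearts. Its genotypes did not overlap, but the level was under the filter and it was not tested. Klf1, the factor that turns on adult beta globin, lay between 3.71 and 4.44 on the 6 arrays, and Nfe2 between 3.51 and 4.70. Epor, the erythropoietin receptor, read 7.26, 6.39 and 6.90 in FOG-2R3K5A hearts, against 6.09, 6.16 and 7.01 in WT hearts, at 0.43 (SE 0.29, adjusted p = 0.516). Trim10 read 7.39 to 7.53 in FOG-2R3K5A hearts and 7.28 to 7.53 in WT hearts, at 0.02 (SE 0.12). Hemgn, a nuclear protein of blood progenitors, and Tspan33, a tetraspanin of erythroid progenitors, were under the filter level, with arrays from 2.28 to 4.53 and from 5.38 to 6.10.

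As a list, 0 of the 14 tested erythroid genes were called by limma in either direction, against 1.76% of all genes tested (1.39% higher, 0.369% lower). At an unadjusted p under 0.05 there were 2 of 14 (14.3%), Cpox and Sptb, against 14.7% of all genes. The genotypes did not overlap for 3 of 14 (21.4%), all higher in FOG-2R3K5A hearts, against 21.2% of all genes in either direction, 11.5% in that direction and 9.76% in the other. Taken over both directions, both shares lie near those of all genes. Differences were positive for 10 of 14 (71.4%), against 47.2% of all genes, and their median was 0.12, against -0.01 over all genes. They ran from -0.54 for Hba-x to 0.43 for Epor. The median was 0.24 without WT replicate 1 and 0.05 without WT replicate 2. The 12 genes under the filter level are not part of these counts.

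**Figure D4:**
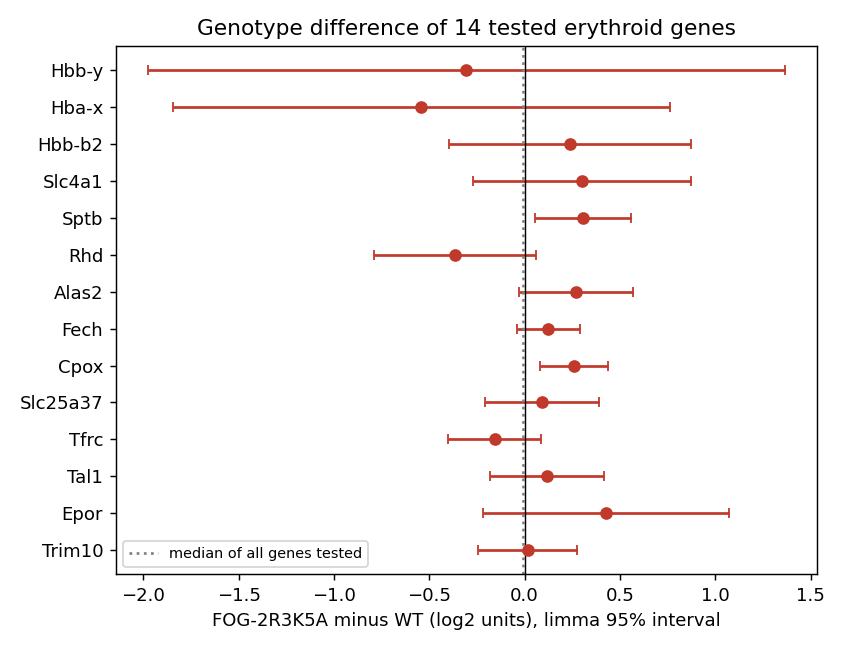
FOG-2R3K5A minus WT difference in log2 units for the 14 tested erythroid genes, with limma's 95% interval (not adjusted for multiple tests). The intervals of Hbb-y and Hba-x are the widest, and only those of Sptb and Cpox leave out 0.

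Further genes of the red cell program were read from 4 lists of 70 genes in all, of which 48 could be tested. Of the 48, 1 was called, lower, against 1.76% of all genes tested called in either direction and 0.369% lower. The called gene was Bcl11a, a repressor that silences embryonic globin genes in definitive red cells and is also expressed in neurons and lymphocytes. It read 8.29, 8.17 and 8.17 in FOG-2R3K5A hearts, against 8.77, 8.69 and 8.70 in WT hearts, without overlap. It fell by 0.51 on the log2 scale (SE 0.09, adjusted p = 0.0281), and its other probe sets above the filter level gave -0.50 and -0.33. With 1 array left out the call held only without WT replicate 1 (adjusted p = 0.0347) and was lost in the other 5 cases (adjusted p up to 0.126), and it was lost without the filter (adjusted p = 0.0538). The cell type that carried Bcl11a was not tested.

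Other red cell membrane genes had 0 of 10 called, against 1.76% of all genes tested. Gypc, glycophorin C, was at -0.39 (adjusted p = 0.109) and Tmod1, tropomodulin, at 0.13 (adjusted p = 0.325). Tmod1 was the brightest of that list, with a mean of 11.83 log2 units, and the cell type that carried it was not tested. Other heme and iron genes had 0 of 12 called and a median of -0.03, with Ppox at -0.26 and Slc11a2, an iron transporter, at -0.22. Their other probe sets gave 0.01 and 0.06 for Ppox and -0.10, 0.15 and 0.19 for Slc11a2. Of these only the one at -0.10 lay above the filter level. Of 15 other transcription and signalling genes, 10 had positive differences, against 47.2% of all genes. At an unadjusted p under 0.05 there were 6 of the 15, against 14.7% of all genes. The genotypes did not overlap for 7 of them, 6 higher and 1 lower in FOG-2R3K5A hearts, against 11.5% higher and 9.76% lower among all genes. Zfpm1, which encodes FOG-1, the GATA1 cofactor of red cells, read 9.25, 9.31 and 9.30 in FOG-2R3K5A hearts, against 9.01, 8.54 and 8.80 in WT hearts, at 0.50 (SE 0.12, adjusted p = 0.0770), and was singled out after its values were seen. Late red cell enzymes had 0 of 11 called, with Ube2l6 at 0.35 and Isg20 at 0.38. Over the 48 genes the groups did not overlap for 12 (25%), against 21.2% of all genes, and the median difference was 0.01.

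Markers of cells that travel with red cells, or could be carried over with them, were read on the same arrays. Each count of called genes below stands against 1.76% of all genes tested. Platelet and megakaryocyte genes had 0 of 6 called, with Pf4 at 0.17 and Gp1bb at -0.26. The other Gp1bb probe set, under the filter level, gave 0.53. The summed intensity of the platelet and megakaryocyte genes was 1654 to 1765 in FOG-2R3K5A and 1544 to 1747 in WT hearts. Neutrophil and mast cell genes had 0 of 4 called, with Ngp at -0.38 and Cpa3 at 0.23, and sums of 897 to 1135 in FOG-2R3K5A and 911 to 1228 in WT hearts. Macrophage and leukocyte genes had 0 of 12 called, with F13a1 at 0.51 (adjusted p = 0.116) and Fcgr3 at 0.60 (adjusted p = 0.150), and sums of 3750 to 4213 in FOG-2R3K5A and 3172 to 3972 in WT hearts. Of 8 fetal liver hepatocyte genes 7 lay under the filter level. Alb was among them, at 5.40 to 6.17 in FOG-2R3K5A and 5.48 to 6.03 in WT hearts. The remaining gene, Ttr, had 0.03, and its other probe sets, all under the filter level, gave 0.31, 0.46 and 0.79. The summed hepatocyte signal was 329 to 402 in FOG-2R3K5A and 281.5 to 541 in WT hearts, and 2 of the dim genes, named after their values were seen, lay in opposite directions. Afp read 5.10, 2.98 and 5.75 in FOG-2R3K5A hearts, against 8.06, 2.84 and 6.93 in WT hearts, highest in WT replicate 1. Ahsg read 6.77, 6.40 and 6.68 in FOG-2R3K5A hearts, against 4.95, 6.04 and 5.51 in WT hearts, without overlap and lowest in WT replicate 1. Endothelial genes had 1 of 10 called, and their differences were positive for 7 and negative for 3. The called gene was Vwf, von Willebrand factor, which platelets also carry. It rose by 0.92 on the log2 scale in FOG-2R3K5A hearts (SE 0.13, adjusted p = 0.0123), and the call was lost without WT replicate 3 (adjusted p = 0.0529) or FOG-2R3K5A replicate 3 (adjusted p = 0.0673). Of 12 cardiomyocyte genes 0 were called, with Nppa at 0.10 and Myl7 at 0.14. The part of these cells in the erythroid values was not tested.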

How the data were processed

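Each of 6 whole-heart RNA samples was read on 1 array. Per the labels, RNA was Trizol-extracted and biotin-labelled. The deposited values are linear probe set intensities, with array medians 0.120 log2 units apart; how they were computed, and whether they were scaled between arrays, is not given in the sources used here. No detection call was used, and precision is limited by the small number of arrays.

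Of 45101 probe sets, 64 are controls (3 of them for Tfrc), 34945 have 1 symbol, 932 several and 9160 none in the platform annotation. Intensities were floored at 1 and log2-transformed. Each of 18193 genes was read by its brightest single-symbol probe set, and the 11113 with a mean above 6.30 log2 units (intensity 78.9, the median of all non-control probe sets) were tested with limma 3.58.1 in R 4.3.3 (intensity trend, two-sided, Benjamini-Hochberg adjustment, called under 0.05). The fit was tested on simulated data. Differences are FOG-2R3K5A minus WT. Motifs were counted and figures drawn in Python 3.11.15 with matplotlib 3.10.9.

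All 30 members were named, and of each other list the called genes (at most 4) or the 2 with the smallest p. Members and lists were chosen with earlier results of these data known. The replicate numbers shared by the genotypes were not used to pair the samples in the main fit. Alternatives covered normalization, an offset of 16, the filter, probe set averaging, the variance trend, array weights, the replicate block and each array left out.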

Additional observations from a re-analysis of the deposited data

How the results depend on the processing

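The number of genes called was 196 in all, and 81 without the filter, 125 with the mean over probe sets, 119 without the intensity trend, 429 with array quality weights and 37 to 451 with 1 array left out (451 without WT replicate 1). Of the erythroid genes 0 were called in any alternative except array quality weights, which called 1, Cpox. The median erythroid difference of 0.12 ran from 0.049 to 0.239 with 1 array left out and from 0.045 to 0.172 in the other alternatives. Directions turned for Hbb-b2 (-0.59 with the mean over probe sets, -0.065 with array quality weights), Hbb-y (0.29 with array quality weights) and Ttr (-0.040 with array quality weights). With 1 array left out, differences ran from -0.94 to 0.61 for Hbb-y, -0.99 to 0.17 for Hba-x, -0.082 to 0.502 for Hbb-b2, -0.023 to 0.543 for Slc4a1, -0.048 to 0.232 for Slc25a37, -0.061 to 0.064 for Trim10 and -0.10 to 0.18 for Ttr. The cause was not tested. With the replicate block 234 genes were called, 0 of them erythroid. The deviations of same-numbered hearts correlated at -0.06, 0.13 and 0.41, and those of differently numbered hearts at -0.32 to 0.25. With 3 samples a genotype these values cannot show whether same-numbered samples were paired. Of 428 single-gene values under alternatives 405 kept their direction and side of the threshold. With 3 samples a genotype, the 95% interval of the Hbb-y difference spans -1.98 to 1.37.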

Other observations

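Some genes outside the erythroid list followed Hbb-y across the 6 hearts. Ranked by Pearson's r with Hbb-y, a rule chosen after the values were seen, the 5 highest of 11099 other tested genes were Nop56, Zfp362, Donson, Nono and Rrp36, and the 5 most opposite were H2bc21, Mtmr9, Aldh6a1, Cdkal1 and Crebl2. Nop56, a nucleolar protein of ribosome assembly, read 9.56, 9.70 and 9.26 in FOG-2R3K5A replicates 1, 2 and 3, against 9.91, 9.50 and 9.35 in WT replicates 1, 2 and 3. Its highest and lowest hearts were those of Hbb-y, over a range of 0.65 log2 units. H2bc21, a histone H2B gene, ran the other way, at 8.82, 8.63 and 9.11 in FOG-2R3K5A hearts, against 8.41, 8.96 and 9.10 in WT hearts. Aldh6a1, a mitochondrial enzyme of valine breakdown, read 10.60, 10.47 and 10.79 in FOG-2R3K5A hearts, against 10.38, 10.65 and 10.72 in WT hearts. The genes share the same 6 RNA samples, and WT replicate 1 was the highest or lowest heart for each. With 6 points many of 11099 genes can lie close to any pattern, so no p is given.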
